A study of Mus musculus with 8 samples.

Results

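The clustered protocadherins are a family of cell surface adhesion proteins encoded in 3 neighbouring gene clusters on mouse chromosome 18. Members were taken by name from the count table, as every gene called Pcdha, Pcdhb, Pcdhga, Pcdhgb, Pcdhgc or Pcdhac followed by a number. This gave 58 of the 55414 genes in the table, with 14 in the alpha cluster, 22 in the beta cluster and 22 in the gamma cluster. Total RNA was sequenced in 8 libraries from a mouse model of supratentorial ependymoma, a brain tumor driven by a fusion of Zfta and Rela. The libraries formed 4 groups of 2, namely naive brain and brain tumor from animals given vehicle, and naive brain and brain tumor from animals given MRX-2843, a small molecule that blocks the kinases MERTK and FLT3. Dosing was daily by oral gavage for 5 days, with 50 mg/kg for the drug, and tissue was taken 1 h after the last dose from mice whose tumors had been seen by MRI. The labels give all 8 libraries the genotype ZFTA-RELAfusion, naive brain included, and enter the name of the drug as the cell line of every library, vehicle included. They give no strain, age or sex, do not say which promoter or cells carried the fusion, and do not say whether the duplicates of a group came from separate animals, so p-values may measure only technical spread.

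The family falls into alternate alpha members, beta, gamma A and gamma B members and the C-type members, which lie at the downstream ends of the alpha and gamma clusters. In the alpha and gamma clusters each member has its own large variable exon, with its own promoter, joined by splicing to constant exons shared by the whole cluster, whereas beta members are encoded by a single exon each. In the brain a neuron switches on a few of the alternate promoters, chosen through CTCF, cohesin and DNA methylation, and the proteins bind the same isoforms on a touching cell, which lets neurites recognise and avoid their own branches. C-type members are instead expressed widely among neurons, and Pcdhgc3 is also known from astrocytes and other glia.

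On GRCm38 the alpha members spanned chr18:36930184-37187661, the beta members chr18:37264938-37524479 and the gamma members chr18:37661793-37841873. Over the 8 libraries the alpha members held 3844 counts, the beta members 57480 and the gamma members 50230, together 0.0139% to 0.0319% of a library's counts. Of the 58 members, 54 passed the low-count filter and were tested, among them 12 alpha, 21 beta and 21 gamma members. Pcdha4 held 32 counts in 4 libraries, with at most 15 in a library, and Pcdhb1 held 12 counts in 3 libraries, with at most 6. Pcdha11 and Pcdhga10 had 0 counts in all 8 libraries. In the GENCODE M21 annotation every exon base of Pcdhga10 is also exon of another gene on either strand. Of the 7535 exon bases of Pcdha11, 1268 are not shared, and of the 5768 of Pcdha4, 404 are not shared. If the counting used the same exons, these 0 counts mean that reads from the constant exons were not credited to every member. With no exon base of its own, Pcdhga10 at 0 counts need not lack RNA. Where else the counting placed such reads cannot be read from a table of gene counts. Values of alpha and gamma members are uncertain to that extent, while most of the variable sequence told the members apart. Of windows of 100 bases in the first exon, the median share found in another member was 5.2% for alpha, 0.2% for beta and 0.0% for gamma members, with highest values of 13.0%, 7.7% and 10.7%.

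The libraries held 51150569 to 112938462 counts, and where a gene had 0 counts the true value could still be up to 3 counts, or 0.0266 to 0.0587 CPM (counts scaled to library size). Most low counts were even, between 77.8% and 81.8% of the values from 1 to 20, so counts may not be independent; if each fragment gave 2 counts, a 0 allows 6 counts, or 0.0531 to 0.117 CPM, and limits on that basis are given beside the others. The intervals cover counting error only. The limits allow for it only in the group at 0 counts and take the counts of the other group as exact. The vehicle tumor libraries stood apart from the other 6. Of the 9 mural and fibroblast markers, 6 rose in vehicle tumor against vehicle naive brain, while the mural genes Kcnj8, Acta2 and Tagln did not pass the test. Mitochondrially encoded genes took 3.26% and 3.37% of their counts and 14.73% to 18.55% in the rest. The summed level of 12 neuron markers was 537 and 542 CPM in vehicle tumor and 4409 to 7643 CPM in the other libraries, the sum of the fibroblast collagen genes Col1a1 and Col1a2 was 7824 and 7883 CPM against 18.5 to 28.9 CPM, and that of 10 microglia markers was 3197 and 3228 CPM against 345 to 472 CPM. Zfta, a partner of the fusion, was at 287 and 290 CPM in vehicle tumor, at 54.3 and 57.0 CPM in the libraries labelled MRX-2843 tumor and at 32.7 to 49.6 CPM in naive brain. By these genes the libraries labelled MRX-2843 tumor lay near naive brain. Markers of dividing cells differed, with a sum over 10 genes of 43.5 and 34.6 CPM in those libraries. That sum was 12.4 to 14.9 CPM in naive brain and 287 CPM in both vehicle tumor libraries. Xist was at 526 to 795 CPM in the 4 MRX-2843 libraries and at 0.41 to 2.88 CPM in the 4 vehicle libraries, so treatment cannot be told apart from the sex of the animals or from an unexplained number in the table's headers that differed between the treatments. That number was the same in all MRX-2843 libraries. Vehicle naive replicate 1 carried the number of both vehicle tumor libraries and vehicle naive replicate 2 carried a different one. In bulk tissue, fewer cells of a type and less RNA per cell cannot be told apart.

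The 3 clusters differed in direction between vehicle tumor and vehicle naive brain. The summed level of the 14 alpha members was 10.005 and 9.18 CPM in vehicle naive brain, with 1.76 and 1.07 CPM in vehicle tumor. The summed level of the 22 beta members was 85.8 and 81.0 CPM in vehicle naive brain, with 122 and 128 CPM in vehicle tumor. The gamma members summed to 60.1 and 61.7 CPM in vehicle naive brain and to 147 and 153 CPM in vehicle tumor. Alpha was thus low and beta and gamma were high in both vehicle tumor libraries. In MRX-2843 naive brain the sums were 7.55 and 8.11 CPM for alpha, 92.4 and 93.0 CPM for beta and 47.1 and 46.4 CPM for gamma. In MRX-2843 tumor they were 7.63 and 10.4 CPM for alpha, 82.8 and 84.9 CPM for beta and 69.2 and 76.7 CPM for gamma. Without Pcdhgc3, the most abundant member in vehicle tumor, gamma summed to 52.8 and 55.4 CPM in vehicle naive brain and to 70.3 and 75.6 CPM in vehicle tumor. These sums are descriptions with no test of their own.

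**Figure D1:**
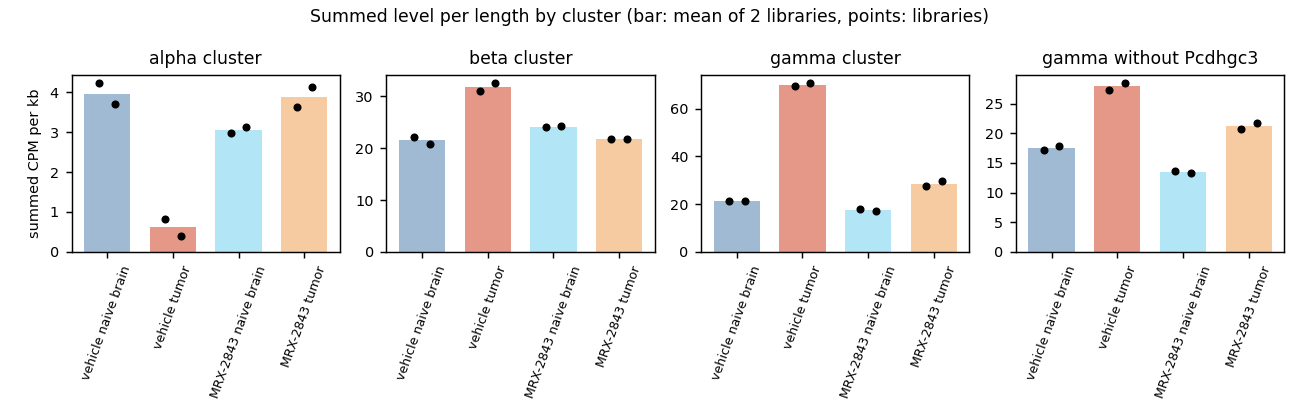
Summed level per length (CPM per kilobase of exon not shared with another gene) of each cluster, by group on the horizontal axis; bars are means of 2 libraries and points are libraries. Alpha is lowest and gamma highest in vehicle tumor, and the panel without Pcdhgc3 keeps a smaller gap.

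Divided by the length of exon not shared with another gene, the mean summed level in vehicle tumor over that in vehicle naive brain gave a log2 ratio of -2.69 for alpha, 0.56 for beta, 1.72 for gamma and 0.67 for gamma without Pcdhgc3. Each kept its sign with library totals in place of scaled totals (-2.43, 0.82, 1.98 and 0.93) and with no division by length (-2.76, 0.59, 1.30 and 0.43).

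Of the 54 members tested, 17 rose in vehicle tumor relative to vehicle naive brain (edgeR's quasi-likelihood test, Benjamini-Hochberg adjusted p under 0.05 over all 24356 genes tested), where 29.3% of all genes tested rose. A further 9 members fell, where 30.8% of all genes fell. The median log2 fold change was 0.25 over the members and -0.03 over all genes tested. None of the 12 alpha members rose and 6 fell, with a median of -2.95. Among the 21 beta members 10 rose and 1 fell, with a median of 0.69. Among the 21 gamma members 7 rose and 2 fell, with a median of 0.38. With library totals in place of scaled totals the median of all genes moved by 0.25, 23 members rose and 8 fell against 35.7% and 25.4% of all genes, and the medians of the clusters kept their sign. Of the 26 calls, 16 held when each of the 8 libraries was left out in turn.

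The calls of Pcdha3, Pcdha6, Pcdhb2, Pcdhb9, Pcdhb18, Pcdhga2 and Pcdhga11 were lost without vehicle naive replicate 1. Without vehicle naive replicate 2 the calls lost were those of Pcdha3, Pcdhb2, Pcdhb9, Pcdhb18, Pcdhga2, Pcdhga11, Pcdhga12 and Pcdhgb2. Without vehicle tumor replicate 1 the calls of Pcdha3, Pcdhb2 and Pcdhb18 were lost, and without vehicle tumor replicate 2 those of Pcdha3, Pcdhb9, Pcdhb14 and Pcdhga2.

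**Figure D2:**
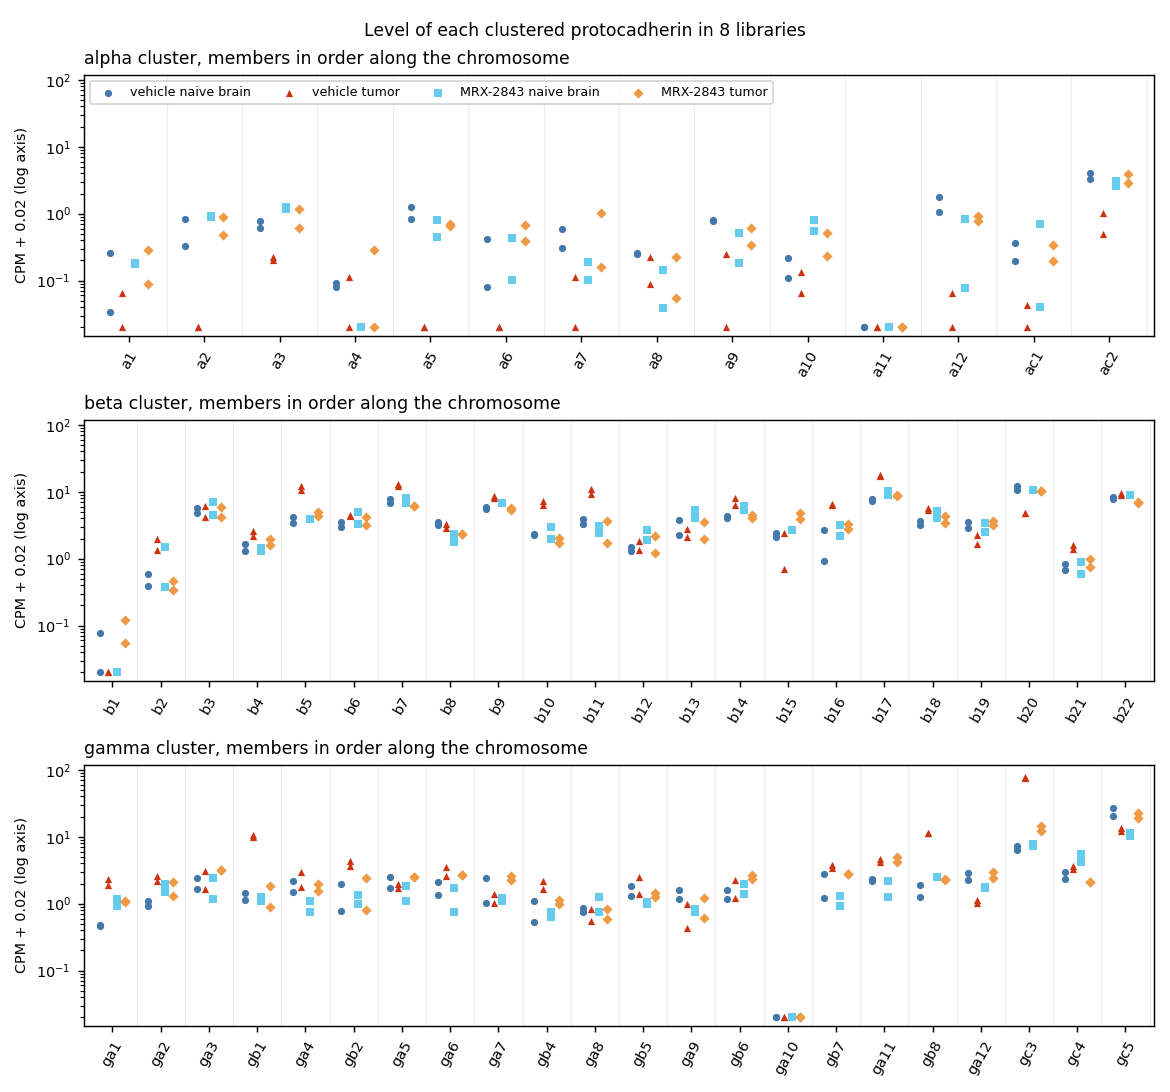
Level of each of the 58 members in each of the 8 libraries, with members in their order along the chromosome on the horizontal axis and CPM plus 0.02 on a logarithmic vertical axis; each point is a library and its colour and shape give the group. Vehicle tumor lies below the other groups for Pcdhac2 and Pcdhb20 and above them for Pcdhgb8 and Pcdhgc3.

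Alternate alpha members, which carry the variable diversity of the alpha cluster, were at low levels in naive brain and near or at 0 in vehicle tumor. Pcdha12, the alternate alpha member with the highest level per length in naive brain, was at 1.77 and 1.04 CPM in vehicle naive brain, 0 and 0.05 CPM in vehicle tumor, 0.80 and 0.06 CPM in MRX-2843 naive brain, with 0.91 and 0.76 CPM in MRX-2843 tumor. The log2 fold change in vehicle tumor against vehicle naive brain was -5.84 ± 1.31 (SE, adjusted p = 0.0013 in edgeR's quasi-likelihood test), and -4.89 and -9.64 without vehicle tumor replicate 1 and replicate 2. Both vehicle tumor libraries were the lowest for it, with MRX-2843 naive replicate 2 only just above them.

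Pcdha5, the member with the largest fitted fall of the family, was at 1.23 and 0.80 CPM in vehicle naive brain and had 0 counts in both vehicle tumor libraries. It was at 0.78 and 0.42 CPM in MRX-2843 naive brain, with 0.63 and 0.69 CPM in MRX-2843 tumor. With 3 counts allowed over the vehicle tumor group, Pcdha5 was at least 59.6-fold lower there than in vehicle naive brain, or at least 29.8-fold with 6 counts allowed (edgeR adjusted p = 4.35e-05). Pcdha2 was at 0.82 and 0.31 CPM in vehicle naive brain, 0 in both vehicle tumor libraries, 0.86 and 0.91 CPM in MRX-2843 naive brain, with 0.46 and 0.88 CPM in MRX-2843 tumor, and was at least 33.2-fold lower in vehicle tumor than in vehicle naive brain on the same limit, or 16.6-fold with 6 counts (edgeR adjusted p = 0.00021). Pcdha6 also had 0 counts in both vehicle tumor libraries, against 0.40 and 0.06 CPM in vehicle naive brain. It was at least 13.6-fold lower on the same limit, or 6.81-fold with 6 counts (edgeR adjusted p = 0.01). Pcdha6 held 28 of the counts behind that limit in vehicle naive replicate 1 and 4 in replicate 2. Its call was lost without vehicle naive replicate 1, at an adjusted p of 0.08. These members had counts in all 6 libraries outside vehicle tumor.

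Pcdha3 was at 0.59 and 0.74 CPM in vehicle naive brain, 0.21 and 0.18 CPM in vehicle tumor, 1.15 and 1.24 CPM in MRX-2843 naive brain, with 0.60 and 1.16 CPM in MRX-2843 tumor. It had a log2 fold change of -1.77 ± 0.67 (SE) in vehicle tumor against vehicle naive brain, with an edgeR adjusted p of 0.0335, and the call was lost without each of the 4 vehicle libraries (adjusted p = 0.0531 to 0.121) and with library totals (0.0636). Pcdha1, Pcdha7, Pcdha8, Pcdha9 and Pcdha10 did not pass the test, and their log2 fold changes ranged from -3.16 to -0.75. Depth is low for these members. The alternate alpha members summed to 444 and 331 counts in the vehicle naive libraries and to 66 and 50 in vehicle tumor. A difference of a single member could be missed at this level, and detection at these counts was not tested.

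The C-type members, which end the alpha and gamma clusters, went in different directions. Pcdhac2 (ENSMUSG00000102697.2, chr18:37143503-37187657) was at 3.29 and 4.07 CPM in vehicle naive brain, 0.99 and 0.48 CPM in vehicle tumor, 2.54 and 3.03 CPM in MRX-2843 naive brain, with 2.88 and 3.96 CPM in MRX-2843 tumor. It fell in vehicle tumor relative to vehicle naive brain by a log2 fold change of -2.32 ± 0.40 (SE, edgeR adjusted p = 0.00012), or -2.94 without vehicle tumor replicate 1, and the 2 vehicle tumor libraries lay below all others. Pcdhac1 was at 0.34 and 0.18 CPM in vehicle naive brain and held 2 counts over both vehicle tumor libraries, against 36 in vehicle naive brain, with 0.02 and 0.68 CPM in MRX-2843 naive brain, with 0.18 and 0.32 CPM in MRX-2843 tumor. The ratio of vehicle naive brain to vehicle tumor was 23 with a 95% counting interval from 5.92 to 197, or from 3.63 to 957 if these were 1 and 18 fragments, and the edgeR adjusted p of 0.051 did not pass the threshold. Pcdhac1 passed it in DESeq2's test (adjusted p = 0.025) and without vehicle tumor replicate 2, MRX-2843 naive replicate 1 or MRX-2843 tumor replicate 1 (adjusted p = 0.042, 0.0243 and 0.0497), and also with no filter, with the vehicle groups alone and with the replicate block (0.0264, 0.0262 and 0.0469).

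Pcdhgc3 (ENSMUSG00000102918.2, chr18:37806364-37841873) had the largest rise of the family. It was at 7.33 and 6.24 CPM in vehicle naive brain, 76.7 and 77.1 CPM in vehicle tumor, 7.84 and 7.21 CPM in MRX-2843 naive brain, with 12.1 and 14.4 CPM in MRX-2843 tumor. Vehicle tumor was far above all other libraries, and MRX-2843 tumor lay above both naive groups without overlap. The log2 fold change in vehicle tumor against vehicle naive brain was 3.50 ± 0.13 (SE, edgeR adjusted p = 2.43e-12). Per length, Pcdhgc3 made up 17.5% of the summed level of the gamma cluster in vehicle naive brain and 60.2% in vehicle tumor, or 11.2% and 51.3% without division by length.

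Pcdhgc5 was the leading gamma member in vehicle naive brain and moved the other way. It was at 20.4 and 27.2 CPM in vehicle naive brain, 12.1 and 13.5 CPM in vehicle tumor, 10.2 and 11.3 CPM in MRX-2843 naive brain, with 19.3 and 22.4 CPM in MRX-2843 tumor. It fell in vehicle tumor by a log2 fold change of -0.90 ± 0.15 (SE, edgeR adjusted p = 0.00011), and its share of the gamma level per length was 24.3% in vehicle naive brain and 3.95% in vehicle tumor. MRX-2843 naive brain was lower still than vehicle tumor, and the highest groups were vehicle naive brain and MRX-2843 tumor. Pcdhgc4, the C-type member that mouse neurons need for survival, was at 2.96 and 2.35 CPM in vehicle naive brain, 3.6 and 3.31 CPM in vehicle tumor, 5.50 and 4.18 CPM in MRX-2843 naive brain, with 2.11 and 2.06 CPM in MRX-2843 tumor. A log2 fold change of 0.38 ± 0.29 (SE) in vehicle tumor against vehicle naive brain did not pass the test (edgeR adjusted p = 0.27).

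**Figure D3:**
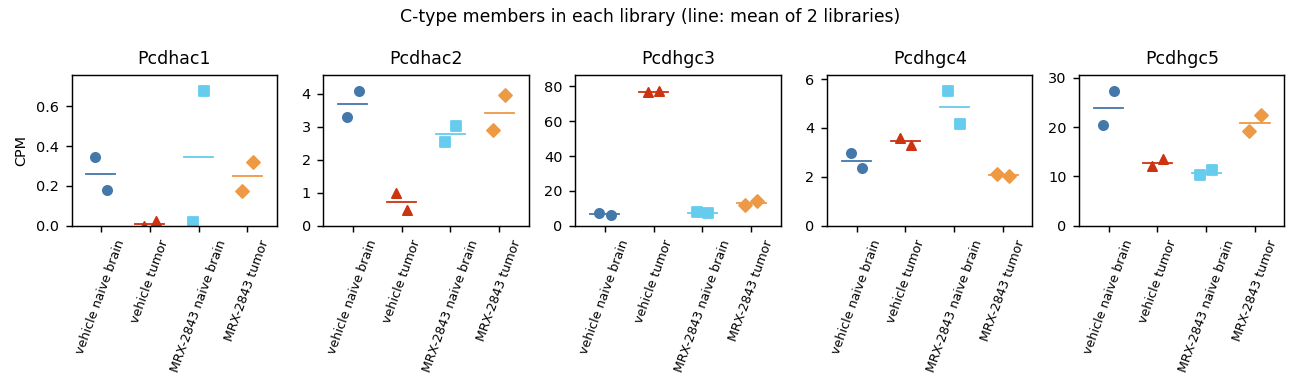
Level in CPM of the 5 C-type members in each library, by group on the horizontal axis; points are libraries and lines are means of 2 libraries, and each panel has its own vertical axis from 0. Pcdhgc3 stands at 76.7 and 77.1 CPM in vehicle tumor, while Pcdhac2 and Pcdhgc5 are lower there than in vehicle naive brain.

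Beta members, each encoded by a single exon and free of the constant exons, held 10 of the 17 rises in vehicle tumor. Pcdhb17 was at 7.36 and 7.84 CPM in vehicle naive brain, 16.97 and 17.7 CPM in vehicle tumor, 9.005 and 10.3 CPM in MRX-2843 naive brain, with 8.49 and 8.97 CPM in MRX-2843 tumor. Its log2 fold change in vehicle tumor against vehicle naive brain was 1.19 ± 0.15 (SE, edgeR adjusted p = 5.44e-06), and its share of the beta level per length was 7.60% in vehicle naive brain and 11.7% in vehicle tumor. Pcdhb16 rose from 2.7 and 0.89 CPM in vehicle naive brain to 6.24 and 6.63 CPM in vehicle tumor (log2 fold change 1.84 ± 0.41, SE, edgeR adjusted p = 0.0012). Its value was 2.85 without vehicle naive replicate 1 and 1.26 without vehicle naive replicate 2. In MRX-2843 naive brain Pcdhb16 was at 2.17 and 3.13 CPM and in MRX-2843 tumor at 3.25 and 2.73 CPM.

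Pcdhb5 was at 4.11 and 3.34 CPM in vehicle naive brain, with 10.6 and 11.97 CPM in vehicle tumor, Pcdhb10 at 2.30 and 2.21 against 7.33 and 6.33 CPM, and Pcdhb11 at 3.32 and 3.93 against 9.39 and 10.8 CPM. The log2 fold changes were 1.60, 1.60 and 1.48, and all 3 members kept their call without any one library. Pcdhb7, second to Pcdhb20 among beta members per length in naive brain, was at 7.89 and 6.85 CPM in vehicle naive brain, 12.4 and 13.1 CPM in vehicle tumor, 6.67 and 7.95 CPM in MRX-2843 naive brain, with 6.1 and 6.004 CPM in MRX-2843 tumor, a log2 fold change of 0.79 ± 0.17 between the vehicle groups (SE, edgeR adjusted p = 0.001). Pcdhb2, a member near the upstream end of the cluster, was at 0.37 and 0.57 CPM in vehicle naive brain, with 1.95 and 1.35 CPM in vehicle tumor. MRX-2843 naive replicate 1 reached 1.48 CPM for Pcdhb2 and replicate 2 was at 0.36 CPM, while MRX-2843 tumor was at 0.32 and 0.44 CPM, so vehicle tumor overlaps with MRX-2843 naive brain. Pcdhb9, Pcdhb14 and Pcdhb18 rose by log2 fold changes of 0.54, 0.78 and 0.72.

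Pcdhb20 (ENSMUSG00000046191.8, chr18:37504264-37507822) was the beta member that fell. It had the highest level per length of the beta members in naive brain, at 12.1 and 10.7 CPM in vehicle naive brain, 10.7 and 10.6 CPM in MRX-2843 naive brain, with 10.3 and 10.2 CPM in MRX-2843 tumor, and it was at 4.82 and 4.86 CPM in vehicle tumor. Vehicle tumor alone was low. The log2 fold change in vehicle tumor against vehicle naive brain was -1.24 ± 0.16 (SE, edgeR adjusted p = 6.55e-06), and the share of the beta level per length was 14.9% in vehicle naive brain and 4.28% in vehicle tumor. Pcdhb19, next to Pcdhb20 along the chromosome, was at 2.90 and 3.49 CPM in vehicle naive brain, with 1.65 and 2.25 CPM in vehicle tumor, a log2 fold change of -0.71 that did not pass the test (edgeR adjusted p = 0.068). Pcdhb15 was at 2.44 and 2.09 CPM in vehicle naive brain, with 0.67 and 2.38 CPM in vehicle tumor. Its log2 fold change of -0.57 did not pass the test, was 0.08 without vehicle tumor replicate 1, and was -1.75 and past the threshold without vehicle tumor replicate 2 (adjusted p = 0.0013). The other 8 beta members tested that did not pass had log2 fold changes from -0.30 to 1.01.

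Of the gamma B members tested, 3 of 7 rose and none fell, and of the gamma A members, 3 of 11 rose and 1 fell, against 29.3% and 30.8% of all genes tested; the difference between the subgroups was not tested. Pcdhgb8 (ENSMUSG00000103081.4, chr18:37761801-37841870) was at 1.87 and 1.22 CPM in vehicle naive brain, 11.3 and 11.2 CPM in vehicle tumor, 2.48 and 2.46 CPM in MRX-2843 naive brain, with 2.23 and 2.33 CPM in MRX-2843 tumor. Pcdhgb1 was at 1.41 and 1.12 CPM in vehicle naive brain, 10.05 and 10.7 CPM in vehicle tumor, 1.25 and 1.08 CPM in MRX-2843 naive brain, with 0.86 and 1.84 CPM in MRX-2843 tumor. Both stood several times above every other group in vehicle tumor, with log2 fold changes of 2.86 ± 0.27 and 3.04 ± 0.35 against vehicle naive brain (SE, edgeR adjusted p = 2.47e-07 and 2.18e-06). Pcdhgb2 was at 1.94 and 0.74 CPM in vehicle naive brain, with 3.68 and 4.39 CPM in vehicle tumor (log2 fold change 1.59 ± 0.53, or 2.44 without vehicle naive replicate 1). Pcdhgb7 was at 1.19 and 2.77 CPM in vehicle naive brain, with 3.43 and 3.80 CPM in vehicle tumor. This log2 fold change, 0.87 ± 0.40, did not pass the test (edgeR adjusted p = 0.077), and it passed without vehicle naive replicate 2, at 1.60 and an adjusted p of 0.009, and with library totals, at 1.12.

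Among gamma A members, Pcdhga1 was at 0.46 and 0.45 CPM in vehicle naive brain, 2.30 and 1.85 CPM in vehicle tumor, 1.17 and 0.90 CPM in MRX-2843 naive brain, with 1.04 and 1.08 CPM in MRX-2843 tumor. At 2.19 ± 0.50, its log2 fold change between the vehicle groups was the largest of the gamma A members (SE, edgeR adjusted p = 0.0015). Pcdhga11, the gamma A member with the highest level per length in naive brain, was at 2.20 and 2.32 CPM in vehicle naive brain, 4.56 and 4.23 CPM in vehicle tumor, 2.19 and 1.24 CPM in MRX-2843 naive brain, with 4.94 and 4.17 CPM in MRX-2843 tumor. Unlike Pcdhgb8 and Pcdhgb1, it was at similar levels in both tumor groups. Pcdhga12, the last of the gamma A members along the chromosome, fell from 2.24 and 2.88 CPM in vehicle naive brain to 1.01 and 1.10 CPM in vehicle tumor, with 1.74 and 1.71 CPM in MRX-2843 naive brain, with 2.43 and 2.97 CPM in MRX-2843 tumor (log2 fold change -1.28 ± 0.37 between the vehicle groups, SE, edgeR adjusted p = 0.0076). Pcdhga4 was at 1.46 and 2.19 CPM in vehicle naive brain, 2.94 and 1.78 CPM in vehicle tumor, 0.74 and 1.08 CPM in MRX-2843 naive brain, with 1.51 and 1.96 CPM in MRX-2843 tumor, so the vehicle groups overlap. Its log2 fold change of 0.37 did not pass the test and was -0.03 without vehicle tumor replicate 1. Pcdhga2 rose by 1.26, and the 7 gamma A members that did not pass, Pcdhga4 included, had log2 fold changes from -0.96 to 0.82.

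**Figure D4:**
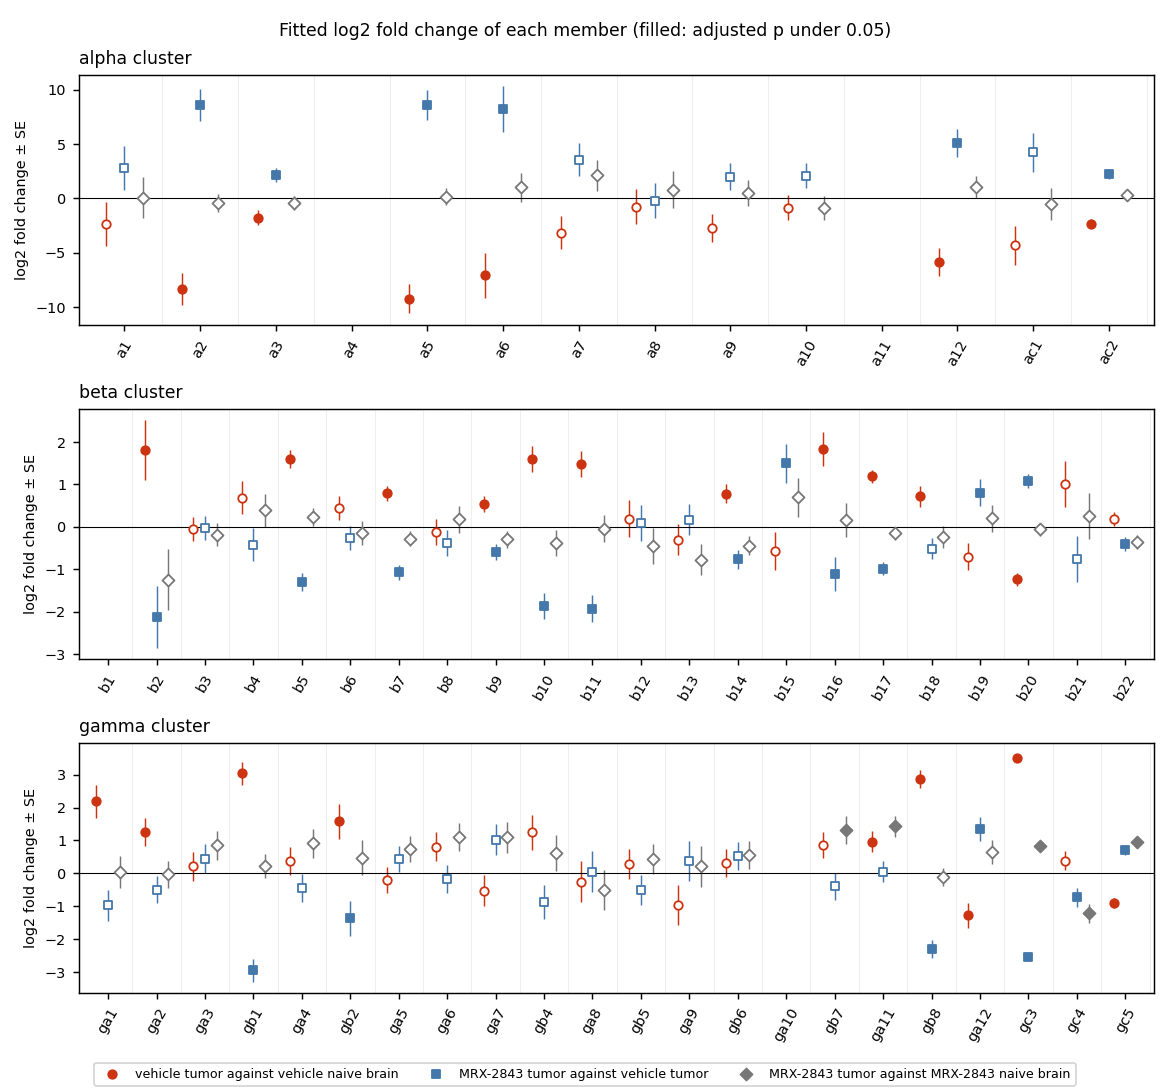
Fitted log2 fold change with its standard error for each member tested, in order along the chromosome, for 3 comparisons; filled symbols have an adjusted p under 0.05. Fitted values of Pcdha2, Pcdha5 and Pcdha6 rest on groups at 0 and are no bound, and Pcdha4, Pcdha11, Pcdhb1 and Pcdhga10 have no value.

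The position of a member along its cluster was only weakly ordered with its fold change. Spearman's rho between order and log2 fold change in vehicle tumor against vehicle naive brain was 0.224 over 12 alpha members, -0.26 over 21 beta members and -0.219 over 21 gamma members. These are descriptions across genes of a shared locus and the same libraries, with no test.

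The makeup of each cluster was also compared between libraries by the order of its members' levels per length. For the 21 beta members tested, Spearman's rho was 0.943 between the vehicle naive libraries and 0.948 between the vehicle tumor libraries, and 0.683 to 0.747 between a vehicle naive and a vehicle tumor library. It was 0.83 to 0.936 between a vehicle naive and an MRX-2843 tumor library. For the 21 gamma members it was 0.747 between the vehicle naive libraries, 0.944 between the vehicle tumor libraries, 0.509 to 0.538 across these groups and 0.748 to 0.845 between vehicle naive brain and MRX-2843 tumor. By this measure the beta and gamma profiles of MRX-2843 tumor lay nearer to vehicle naive brain than those of vehicle tumor did. Alpha profiles were too sparse to order, since the rho between duplicates was as low as 0.371.

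The effective number of members, which is the number of equally abundant members that would give the same sum of squared shares of CPM, was 14.5 and 14.1 for beta in vehicle naive brain, against 14.1 and 13.9 in vehicle tumor. For gamma it was 6.79 and 4.57 in vehicle naive brain, 3.4 and 3.6 in vehicle tumor, 9.53 and 9.28 in MRX-2843 naive brain, against 7.80 and 7.31 in MRX-2843 tumor. The gamma cluster was thus most uneven in vehicle tumor, where Pcdhgc3 led it. For alpha it was 5.72 and 4.21 in vehicle naive brain, against 2.79 and 3.55 in vehicle tumor.

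**Figure D5:**
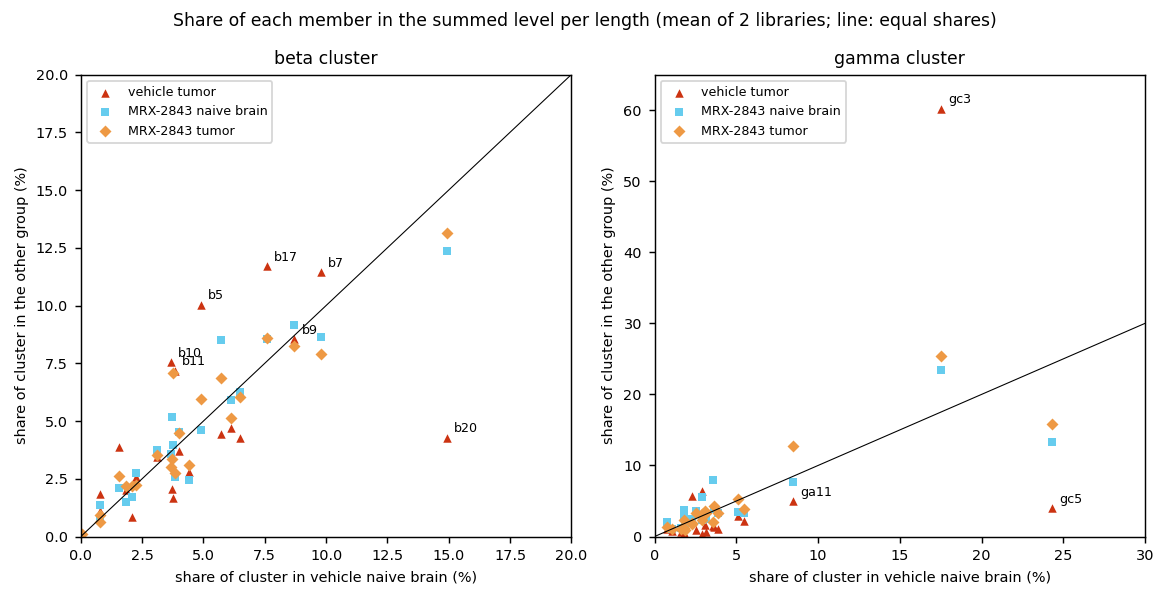
Share of each beta (left) and gamma (right) member in the summed level per length of its cluster, with vehicle naive brain on the horizontal axis and another group on the vertical axis, both in percent; each point is the mean of 2 libraries for a member and the line marks equal shares. Pcdhgc3 stands at 60.2% in vehicle tumor, and Pcdhgc5 and Pcdhb20 stand at 3.95% and 4.28%.

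The libraries labelled MRX-2843 tumor, which lay near naive brain by Zfta and several markers, were next compared with vehicle tumor. There 11 members rose, where 30.6% of all genes tested rose, and 15 fell, where 29.8% of all genes fell. This comparison shares the vehicle tumor libraries with the one above, so the values are given side by side and a reversed sign is not separate evidence. Alpha had 6 members that rose and none that fell (median log2 fold change 3.19), beta 3 that rose and 10 that fell (median -0.51) and gamma 2 that rose and 5 that fell (median -0.40), against a median of 0.03 over all genes tested. Of the 26 calls, 16 held when each library was left out in turn. The calls of Pcdha3, Pcdhb2, Pcdhb9, Pcdhb14, Pcdhb15, Pcdhb16, Pcdhb19, Pcdhb22, Pcdhgb2 and Pcdhgc4 were each lost without some library, and those of Pcdhb19, Pcdhb22 and Pcdhgc4 without 5, 8 and 5 of the 8 libraries.

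The alpha members that rose were Pcdha2, Pcdha3, Pcdha5, Pcdha6, Pcdha12 and Pcdhac2, and the other 6 tested did not pass. Pcdha5, Pcdha2 and Pcdha6 were at least 38.6-fold, 39.1-fold and 29.6-fold higher in MRX-2843 tumor than in vehicle tumor, with 3 counts allowed over the vehicle tumor group, and at least 19.3-fold, 19.5-fold and 14.8-fold higher with 6 counts allowed. Pcdhac2 had a log2 fold change of 2.22 ± 0.40 (SE, edgeR adjusted p = 0.00018) and Pcdha12 of 5.09 ± 1.30 (SE, edgeR adjusted p = 0.0033). Without vehicle tumor replicate 1 these were 2.84 and 4.15, and without vehicle tumor replicate 2 Pcdha12 was at 8.89. Both MRX-2843 tumor libraries lay within the range of the naive libraries for Pcdha2, Pcdha5, Pcdha12 and Pcdhac2, while MRX-2843 tumor replicate 1 lay above it for Pcdha6, at 0.65 CPM. Pcdha3 had a log2 fold change of 2.17 ± 0.67 (SE, edgeR adjusted p = 0.012), which was lost without vehicle tumor replicate 2 or MRX-2843 tumor replicate 2 (adjusted p = 0.051 and 0.116).

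Among gamma members, Pcdhgc3 fell by 2.54 ± 0.12 on the log2 scale (SE, edgeR adjusted p = 6.43e-11), Pcdhgb1 by 2.94 ± 0.35 and Pcdhgb8 by 2.30 ± 0.26. Without MRX-2843 tumor replicate 2, Pcdhgb1 fell by 3.61. Pcdhgc5 rose by 0.71 ± 0.15 (SE, edgeR adjusted p = 0.00091) and Pcdhga12 by 1.36 ± 0.37 (SE, edgeR adjusted p = 0.0053). Pcdhga1 had a log2 fold change of -0.97 that did not pass the test, except with library totals (-1.19, adjusted p = 0.04). Pcdhga11 had a log2 fold change of 0.05 ± 0.31 (SE), whose sign turned with library totals (-0.17) and without vehicle tumor replicate 2 or MRX-2843 tumor replicate 1. Pcdhgc4 had a log2 fold change of -0.73 ± 0.29 (SE) and an edgeR adjusted p of 0.043. The call was lost without each of the 4 tumor libraries and without MRX-2843 naive replicate 1. With 1 library left out in turn the value lay between -0.79 and -0.67. The call was also lost in DESeq2's test (adjusted p = 0.0501). In edgeR it was lost with no filter, the replicate block or the compared groups alone (adjusted p = 0.0789, 0.0525 and 0.0589).

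Among beta members, Pcdhb20 rose by 1.08 ± 0.16 on the log2 scale (SE, edgeR adjusted p = 2.91e-05). Pcdhb15 rose by 1.499 ± 0.46, to 4.75 and 3.90 CPM in MRX-2843 tumor, above all other libraries, with 2.65 and 2.699 CPM in MRX-2843 naive brain. That call was lost without vehicle tumor replicate 1, at a log2 fold change of 0.85 and an adjusted p of 0.075, and the value was 2.68 without vehicle tumor replicate 2. Pcdhb10, Pcdhb11 and Pcdhb5 fell by 1.87, 1.94 (2.62 without MRX-2843 tumor replicate 2) and 1.30, and Pcdhb7 and Pcdhb17 by 1.07 and 0.99. Pcdhb16 fell by 1.10, a call lost without MRX-2843 tumor replicate 2 (adjusted p = 0.095). Pcdhb2 fell by 2.12, a call lost without vehicle tumor replicate 1 or MRX-2843 tumor replicate 1 (adjusted p = 0.075 and 0.087).

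Within MRX-2843, the libraries labelled tumor were compared with naive brain, in libraries that the first comparison did not use. Here 4 members rose, where 12.4% of all genes tested rose, and 1 fell, where 11.9% of all genes fell. No alpha or beta member passed the test. All 5 calls lay in the gamma cluster, whose median log2 fold change was 0.62 against 0 over all genes tested, and 17 of the 21 gamma members tested had a positive value. Pcdhgc3 rose by 0.82 ± 0.12 on the log2 scale (SE, edgeR adjusted p = 0.00016) and Pcdhgc5 by 0.95 ± 0.15 (SE, edgeR adjusted p = 0.00033). Pcdhga11 rose by 1.43 ± 0.32 (SE, edgeR adjusted p = 0.0045), a call lost without MRX-2843 naive replicate 2 (1.05, adjusted p = 0.052).

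Pcdhgb7, at 0.90 and 1.27 CPM in MRX-2843 naive brain, with 2.76 and 2.73 CPM in MRX-2843 tumor, rose by 1.32 ± 0.42 (SE, edgeR adjusted p = 0.032). That call was lost without MRX-2843 naive replicate 1, MRX-2843 tumor replicate 1 or MRX-2843 tumor replicate 2 (adjusted p = 0.146, 0.08 and 0.07). Pcdhgc4 fell by 1.21 ± 0.29 (SE, edgeR adjusted p = 0.0069), a call lost without MRX-2843 naive replicate 1 (adjusted p = 0.066). Neuron markers summed to 4409 and 4510 CPM in MRX-2843 naive brain and to 4468 and 4454 CPM in MRX-2843 tumor, but 2 of the 12 rose and 6 fell: Slc17a7, of excitatory neurons, went from 152 and 148 CPM to 766 and 824 CPM, and Gad2, of inhibitory neurons, from 238 and 251 CPM to 94.3 and 90.5 CPM. All 10 oligodendrocyte markers rose, with sums of 7782 and 7726 CPM and of 14610 and 15060 CPM. The part of these markers in the gamma values was not tested.

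In naive brain, MRX-2843 was compared with vehicle. In this comparison 1 member rose, where 9.78% of all genes tested rose, and 1 fell, where 11.7% of all genes fell. Pcdhgc5 fell by 1.14 ± 0.15 on the log2 scale (SE, edgeR adjusted p = 6.63e-05) and kept its call without any one library. Pcdhgc4 rose by 0.86 ± 0.29 (SE, edgeR adjusted p = 0.047), a call lost without each of the 4 naive libraries (adjusted p = 0.051 to 0.292). Pcdhgb8 had a log2 fold change of 0.68 ± 0.27 (SE, edgeR adjusted p = 0.093), and passed without vehicle naive replicate 1, at 1.01 and an adjusted p of 0.047. The medians were -0.14 for alpha, 0.12 for beta and -0.25 for gamma, against 0.02 over all genes tested. Neuron markers summed to 7643 and 7509 CPM in vehicle naive brain, above the MRX-2843 naive values given above, but 4 of the 12 rose and 6 fell under MRX-2843. Slc17a7 was at 1698 and 1671 CPM in vehicle naive brain and fell by 3.49, while Gad2 was at 81.8 and 79.3 CPM and rose by 1.60. The part of these markers in the member values was not tested.

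The interaction of treatment and tissue tested whether the change from naive brain to tumor differed between MRX-2843 and vehicle. It was positive for 9 members, where 26.3% of all genes tested had a positive call, and negative for 15, where 25.3% had a negative call. By cluster, 6 alpha, 1 beta and 2 gamma members were positive, and no alpha, 10 beta and 5 gamma members were negative. Pcdhgc3 had the smallest adjusted p, with an interaction of -2.68 ± 0.17 (log2, SE, edgeR adjusted p = 3.62e-09), with values of 3.50 between the vehicle groups and 0.82 between the libraries labelled MRX-2843 tumor and MRX-2843 naive brain. Pcdhgc5 had an interaction of 1.85 ± 0.22 (SE, edgeR adjusted p = 3.44e-06) and was lower in vehicle tumor than in vehicle naive brain and higher in the libraries labelled MRX-2843 tumor than in MRX-2843 naive brain. Pcdhgb8 had an interaction of -2.97 ± 0.37 (SE, edgeR adjusted p = 7.54e-06). Of the 24 calls, 17 held without each library in turn.

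The 6 alpha members that fell in vehicle tumor did so beside the neuron markers, all 12 of which fell there. The 17 beta and gamma members that rose did so where those markers fell, while Pcdhb20, Pcdhga12 and Pcdhgc5 fell too. All 10 oligodendrocyte markers also fell, with sums of 7699 and 7639 CPM in vehicle naive brain and of 535 and 555 CPM in vehicle tumor. All 10 microglia markers rose in vehicle tumor, 9 of 11 radial glia and progenitor markers rose and 2 (Hes5 and Dcx) fell, and the sum of 10 markers of dividing cells went from 12.4 and 14.5 CPM to 287 CPM in both libraries. Vim went from 41.6 and 42.2 CPM in vehicle naive brain to 1529 and 1566 CPM in vehicle tumor, and the other 10 radial glia and progenitor markers summed to 179 and 168 CPM and to 347 and 353 CPM. None of the genes in these lists was at 0 in all 8 libraries. The part of these cell types in the protocadherin values was not tested.

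Genes next to the clusters give the background of the locus. Upstream of alpha, 13 neighbours were tested between vehicle tumor and vehicle naive brain, of which 4 rose and 3 fell, against 29.3% and 30.8% of all genes tested. Cd14, a receptor of myeloid cells, had the largest rise at 3.54 ± 0.22 and Zmat2 the largest fall at -1.41 ± 0.06 (log2, SE), while Slc35a4, Ik and Sra1 rose by 0.93, 0.29 and 0.21 and Apbb3 and Hars fell by 0.84 and 0.65. Taf7, a subunit of the general transcription factor TFIID that lies between the beta and gamma clusters, was at 7.21 and 5.87 CPM in vehicle naive brain, against 11.8 and 11.1 CPM in vehicle tumor, and rose by 0.81 ± 0.19 (edgeR adjusted p = 0.0017). Slc25a2, the other gene between clusters, did not pass the test. Downstream of gamma, Diaph1, an actin nucleator, fell by 0.57, Hdac3, a histone deacetylase, fell by 0.61, Pcdh1 fell by 1.08, Arap3 rose by 1.36 and Fchsd1 did not pass the test. Relch, also on the list of 6 downstream genes, lies on another chromosome in the annotation and is no neighbour. Neighbours thus went in both directions on each side of the clusters.

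Proteins that act on promoter choice in the clusters or on chromatin more widely were taken as a list of 30 genes. In vehicle tumor against vehicle naive brain 17 rose and 8 fell, against 29.3% and 30.8% of all genes tested, with a median of 0.38. Rest, a repressor of neuronal genes, was at 3.70 and 3.71 CPM in vehicle naive brain and rose by 3.30 ± 0.20, to 37.0 and 36.1 CPM in vehicle tumor. Ezh2, the methyltransferase of Polycomb complex PRC2, rose by 2.43, and the cohesin subunits Smc1a and Stag2 rose by 1.06 and 1.14. Ctcf and Smchd1, chosen here for their known role at the clusters after their values were seen, rose by 0.37 ± 0.10 and 0.67 ± 0.10. Tet2 and Setdb1 went the other way. Tet2 was at 48.5 and 46.4 CPM in vehicle naive brain, with 22.1 and 26.1 CPM in vehicle tumor. Setdb1 was at 51.6 and 51.4 CPM in vehicle naive brain, with 38.8 and 41.1 CPM in vehicle tumor. In MRX-2843 tumor against vehicle tumor 9 of the 30 rose and 16 fell, against 30.6% and 29.8% of all genes tested. Their part in the member values was not tested.

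Of 26 genes for partners and effectors of the proteins, 12 rose and 13 fell in vehicle tumor against vehicle naive brain, against 29.3% and 30.8% of all genes tested. Wasf1 and Cyfip2, subunits of the actin-regulating WAVE complex, fell by 4.96 and 2.81, Celsr3, a cadherin of axon guidance, fell by 5.37, and Ptk2b, a kinase that protocadherin tails inhibit, fell by 3.603. Wasf1 was at 241 and 247 CPM in vehicle naive brain, with 7.89 and 7.81 CPM in vehicle tumor and 139 and 146 CPM in MRX-2843 tumor. Wasf2 and Cyfip1, also subunits of WAVE complexes, went the other way. Wasf2 was at 18.7 and 21.9 CPM in vehicle naive brain, with 148 and 165 CPM in vehicle tumor. Cyfip1 was at 50.8 and 50.2 CPM in vehicle naive brain, with 132 and 137 CPM in vehicle tumor. In MRX-2843 tumor against vehicle tumor 11 of the 26 rose and 13 fell, against the same 30.6% and 29.8%.

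Of 12 non-clustered protocadherins, the relatives encoded outside the clusters, 3 rose and 8 fell in vehicle tumor against vehicle naive brain, against 29.3% and 30.8% of all genes tested, with a median of -1.26. Pcdh8 was at 31.5 and 33.4 CPM in vehicle naive brain, with 1.26 and 1.52 CPM in vehicle tumor, and Pcdh10 fell by 2.57 and Pcdh15 by 2.28. Pcdh17 rose by 1.29. In MRX-2843 tumor against vehicle tumor 7 of the 12 rose and 4 fell, against 30.6% and 29.8% of all genes tested. Whether these shares differ from those of the clustered members was not tested.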

How the data were processed

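The authors deposited 1 table of raw counts of reads per gene, in whole numbers, for 55414 genes in 8 libraries. Per the submitters' processing notes, STAR 2.7.7a, SAMtools, featureCounts and Subread were used with builds named hg38 and mm10, whose roles are not given in the sources used here, nor are the strand setting and the annotation. GENCODE M21 on GRCm38 held 52081 (94.0%) of the gene identifiers once versions were dropped and 35 with versions kept, so positions and lengths come from another release than the counts. M21 gives the identifier the table names Pcdha10 the name Pcdha11, and the table's names were kept. Limits at 6 counts were added after seeing that most low counts were even.

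Fold changes come from edgeR 4.0.16 (R 4.3.3), run on all 8 libraries with 4 group means and the quasi-likelihood test. Low genes were removed with filterByExpr (minimum count 10) and totals scaled by TMM, which left 4 residual df and a common coefficient of variation between replicates of 21%. P-values were adjusted by Benjamini-Hochberg over 24356 genes, with a threshold of 0.05. The SE is derived from the fold change and its F statistic. CPM is over TMM-scaled totals. Level per length is CPM per kilobase of exon not shared with another gene on either strand, a definition chosen after seeing the data. Exon not shared on the member's own strand is longer for some members. It is 2475 against 1944 bases for Pcdha12, 2637 against 1256 for Pcdhga11 and 3380 against 1821 for Pcdhgc3. By that length these 3 have lower levels per length, and Pcdha12 and Pcdhga11 do not lead their subgroups in naive brain. DESeq2 1.42.0 gave alternatives. The fit was tested on simulated data for vehicle tumor against vehicle naive brain, with 200 genes changed. Among changed genes that the filter kept, it recovered 51.1% of the log2 changes of 1 and 75% of those of 2. In the data 7125 genes rose and 7501 fell in this comparison, which alters the adjustment of p-values. The rates therefore do not give the detection of members here, and members that did not pass may still differ. Tables used pandas 2.3.3, with NumPy 2.4.6 and SciPy 1.17.1, under Python 3.11.15, and plots used matplotlib 3.10.9.

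The members and lists were chosen with earlier results of these data known. Given with the value in every library by rule were the C-type members, the 2 members per subgroup with the highest level per length in naive brain, the largest rise and fall per subgroup in the 2 comparisons with vehicle tumor, and up to 4 members with the smallest adjusted p in each other comparison. Of each list, up to 4 genes with the smallest adjusted p and all locus neighbours could be named. Wasf2, Cyfip1, Tet2 and Setdb1 were named outside this rule, after their values were seen, as genes that went the other way. Other members are named because they passed the test. Replicate libraries differed beyond counting noise (chi-square per gene 9.45 to 20.29). Sequences and protein identities were not analysed here.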

Additional observations from a re-analysis of the deposited data

Results flagged for a closer look

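For 24 members the change from naive brain to tumor differed between MRX-2843 and vehicle by the interaction term of edgeR's quasi-likelihood fit at an adjusted p under 0.05. Each value below is the log2 change from naive brain to tumor under MRX-2843 minus that under vehicle. A positive value means a lower tumor level relative to naive brain under vehicle than under MRX-2843, and the naive groups enter it too. The libraries labelled MRX-2843 tumor lay near naive brain by Zfta and several markers. The vehicle tumor libraries enter every one of these values, and treatment cannot be told apart from the sex of the animals.

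Among alpha members the interaction was 7.96 for Pcdha2, 9.37 for Pcdha5, 8.10 for Pcdha6, 5.30 for Pcdha7, 6.86 for Pcdha12 and 2.61 for Pcdhac2. The fitted values of Pcdha2, Pcdha5 and Pcdha6 rest on 0 counts in both vehicle tumor libraries and are no bound on the difference. With 1 library left out in turn, Pcdha12 lay between 5.90 and 10.7, Pcdha7 between 3.29 and 10.06 and Pcdha6 between 6.18 and 9.60. Pcdha7 was at 0.29 and 0.57 CPM in vehicle naive brain, 0.09 and 0 CPM in vehicle tumor, 0.08 and 0.17 CPM in MRX-2843 naive brain and 0.14 and 1.00 CPM in MRX-2843 tumor. Its call (adjusted p = 0.047) was lost without any of 5 of the 8 libraries, namely vehicle naive replicate 2, vehicle tumor replicate 2, either MRX-2843 naive library and MRX-2843 tumor replicate 2. The same call was lost with library totals and with the replicate block (edgeR adjusted p = 0.0555 and 0.107). The call of Pcdha6 was lost without vehicle naive replicate 1.

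Among beta members it was -3.06 for Pcdhb2, -1.38 for Pcdhb5, -1.07 for Pcdhb7, -0.84 for Pcdhb9, -1.98 for Pcdhb10, -1.52 for Pcdhb11, -1.22 for Pcdhb14, -1.67 for Pcdhb16, -1.34 for Pcdhb17 and -0.96 for Pcdhb18, and 1.18 for Pcdhb20. With 1 library left out in turn, Pcdhb16 lay between -2.69 and -1.09 and Pcdhb2 between -3.77 and -1.73. The calls of Pcdhb2 and Pcdhb9 were lost without vehicle naive replicate 1, those of Pcdhb16 without vehicle naive replicate 2 or MRX-2843 naive replicate 2, and that of Pcdhb18 without any of 5 libraries (both vehicle naive libraries, vehicle tumor replicate 1, MRX-2843 naive replicate 2 and MRX-2843 tumor replicate 2). Pcdhb2 also lost it without MRX-2843 naive replicate 1 and Pcdhb9 without vehicle tumor replicate 2.

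Among gamma members it was -2.15 for Pcdhga1, -2.81 for Pcdhgb1, -2.97 for Pcdhgb8, -2.68 for Pcdhgc3 and -1.59 for Pcdhgc4, and 1.92 for Pcdhga12 and 1.85 for Pcdhgc5. The call of Pcdhga1 was lost without vehicle tumor replicate 1, and the other 6 gamma calls held without each library in turn.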

How the results depend on the processing

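Counts of members that rose or fell were recomputed with other scalings, tests, filters and sets of libraries. Leaving out 1 library left a single library in its group, so counts of members from those fits are not given here. With a filter of 1 CPM in 2 libraries, which keeps 43 members and 2 of them alpha, 5 members fell in vehicle tumor against vehicle naive brain (38.3% of all genes), 7 rose in MRX-2843 tumor against vehicle tumor (38% of all genes) and 4 had a positive interaction (34% of all genes). With a minimum log2 fold change of 1, 2 members rose in MRX-2843 tumor against MRX-2843 naive brain (3.17% of all genes). The rise of Pcdhgc4 in naive brain was lost, leaving 0, with DESeq2 size factors, DESeq2's test, no filter, the replicate block or a minimum fold change. In these settings 9.04%, 9.53%, 7.71%, 9.48% and 2.82% of all genes rose, and the cause was not tested. Leaving out the mitochondrially encoded genes, chosen after seeing the data, gave 17 and 9 calls in vehicle tumor against vehicle naive brain (29.2% and 30.7% of all genes).

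Replicate numbers did not pair the libraries (correlations of replicate differences from -0.007 to 0.018). With the replicate block, 16 members rose and 9 fell in vehicle tumor against vehicle naive brain (28.4% and 29.5% of all genes). In MRX-2843 tumor against vehicle tumor 11 and 13 did so (29.3% and 29% of all genes). The numbers were 4 and 1 in MRX-2843 tumor against MRX-2843 naive brain (12.1% and 11.5%) and 0 and 1 in naive brain (9.48% and 11.3%). For the interaction they were 8 and 15 (25.2% and 24.6%).

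Signs turned for 3 named values that did not pass the test on all libraries. Without 1 library, Pcdhb15 in vehicle tumor against vehicle naive brain ranged from -1.75 to 0.078, Pcdhga4 in the same comparison from -0.0322 to 0.69, and Pcdhga11 in MRX-2843 tumor against vehicle tumor from -0.0794 to 0.147; with library totals the last was -0.173. Of the other recomputed values of named members, 1469 kept direction and call, 119 lost their call and 17 gained it. The fit to the compared groups alone does not apply to the interaction, and the filter of 1 CPM gave no value for members it dropped. Low depth limits the alpha members most.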
